A study of Mus musculus with 2 samples.

Results

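The 10 genes described here encode the cohesin complex, its regulators and the insulator protein CTCF, and they were chosen by name and matched by symbol to the Ensembl gene identifiers of the deposited tables. They are Smc1a, Smc3, Rad21, Stag1, Stag2, Nipbl, Wapl, Pds5a, Pds5b and Ctcf. All 10 were found among 43346 mouse genes in the tables. Total RNA was sequenced from 2 libraries, each prepared from 100 hematopoietic stem cells (HSCs) of adult male C57BL/6J mice aged 5 to 6 weeks. Both libraries belong to a single group without treatment or engineered allele, and they are numbered in the labels as biological replicates 1 and 2. Because they also share a donor identifier there, separate animals are not established, their spread may be technical, and every pattern describes 2 pools of cells.

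Cohesin is a ring of the 2 SMC ATPases SMC1A and SMC3 closed by the kleisin RAD21, to which either STAG1 or STAG2 binds. NIPBL loads the ring on chromatin and drives loop extrusion, WAPL releases it, and PDS5A and PDS5B bind the same ring and take part in its release and its stabilisation. CTCF is a zinc finger protein that halts extruding cohesin at its binding sites and so sets loop boundaries. The ring also holds sister chromatids together until anaphase. In blood, cohesin genes, STAG2 above all, are recurrently mutated in myeloid neoplasms, and reduced cohesin is known to shift stem cells toward self-renewal.

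The deposited expected counts (estimated reads per gene) summed to 48313341 in replicate 1 and 28947093 in replicate 2, of which nuclear protein coding genes held 19528380 and 10411450. Of 10 stem cell marker genes 9 were detected in both libraries, with a summed level of 538 and 380 TPM and a median of 40.9 and 22.1 TPM. Mecom, Pdzk1ip1 and Slamf1 were over 2-fold higher in replicate 1, and Slamf1, which encodes CD150, stood at 2.87 and 0.36 TPM. Higher in replicate 2 were Kit (108 and 117 TPM), Procr (3.29 and 6.48 TPM) and Gata2 (12.8 and 19.0 TPM). TPM is a length-normalised share of each library's transcripts, and paired values are given for replicate 1, then replicate 2. Of 12 neutrophil markers 2 were detected in both, and their summed level was 6.29 (replicate 1) and 353 TPM (replicate 2), with 6 and 2 of them at 0. Summed levels of 8 B lineage markers were 108 and 162 TPM, of 8 erythroid markers 2350 and 2092 TPM, of 7 T and NK cell markers 58.4 and 64.9 TPM, and of 8 proliferation genes 968 and 854 TPM. Of the B lineage sum Jchain alone held 99.4 and 129 TPM, while 4 of the 8 (Cd79b, Pax5, Igll1 and Ebf1) stood at 0.01 TPM or less in replicate 1 and were over 2-fold higher in replicate 2. Of the T and NK markers 4 were over 2-fold higher in replicate 1 and 1 (Lck) in replicate 2. All 8 erythroid markers were detected in both libraries, with medians of 159 and 162 TPM. Car1 alone held 1333 and 1071 TPM of their sum. A pool of cells cannot tell fewer expressing cells from less RNA per cell, and the part of these other cells in the levels below was not tested.

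All 10 genes were detected in both libraries, with a TPM no lower than 1 and 10 or more expected counts, whereas 45.5% of 21461 nuclear protein coding genes were. Their expected counts ran from 3247 to 11539 in replicate 1 and from 2482 to 5835 in replicate 2. Replicates 1 and 2 gave median levels over the 10 genes of 44.4 and 41.6 TPM, against 13.99 and 12.5 TPM over the 9769 coding genes detected in both. Ranked by mean level among those 9769 genes, the 10 lay between percentile 76.9 (Pds5b) and percentile 95.3 (Smc1a). The highest of them exceeded the lowest 3.88-fold in replicate 1 and 2.55-fold in replicate 2. The reads of all 10 genes were assigned to a gene without ambiguity: their deposited posterior SD of the gene count was 0 in both libraries, as for 86.0% of detected coding genes.

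**Figure D1:**
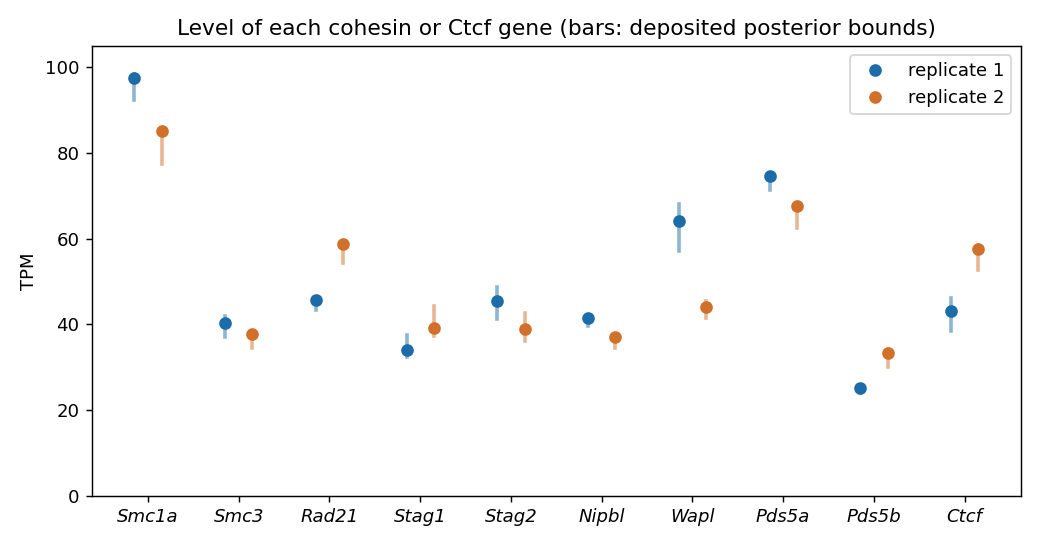
Level of each gene in TPM (vertical axis) in replicate 1 and replicate 2. Points are the deposited TPM and bars the deposited posterior bounds of TPM within a library. Smc1a and Pds5a stand highest in both libraries, and Pds5b is lowest in both.

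Smc1a, on chromosome X (ENSMUSG00000041133, chrX:152016428-152062694, plus strand, GRCm38), encodes 1 of the 2 ATPase arms of the ring and was the most abundant of the 10. It stood at 97.5 (replicate 1) and 85.1 TPM (replicate 2), a mean of 91.3 ± 8.82 TPM (SD, n = 2). The lower of these values lay above every value of the other 9 genes. Smc3 (ENSMUSG00000024974, chr19:53600398-53645833, plus strand), which encodes the partner arm, was measured at 40.3 and 37.8 TPM (39.1 ± 1.75 TPM). By gene TPM its 2 values lay closer together than those of any other of the 10 genes. On complete coding transcripts Smc3 stood at 29.0 and 34.2 TPM, and Pds5b had the closest values, at 25.1 and 26.3 TPM. Rad21 (ENSMUSG00000022314, chr15:51962240-51991747, minus strand), the kleisin gene, stood at 45.6 (replicate 1) and 58.8 TPM (replicate 2), a mean of 52.2 ± 9.33 TPM. The ring proteins assemble in equal numbers, but by gene TPM Smc1a lay above Smc3 by 1.22 ± 0.07 on the log2 scale within a library (ratios use a pseudocount of 0.1 TPM). The ratio was smaller and less even on other scales, at 1.12 and 0.44 (0.78 ± 0.48) on complete coding transcripts and 1.21 and 0.62 (0.92 ± 0.41) on expected counts. Rad21 lay above Smc3 by 0.18 in replicate 1 and 0.64 in replicate 2.

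Stag1 and Stag2 encode alternative subunits that define 2 forms of the complex, and Stag2 lies on chromosome X (ENSMUSG00000025862, chrX:42149317-42277185, plus strand), which male cells carry as a single copy. Stag1 is autosomal (ENSMUSG00000037286, chr9:100597798-100959375, plus strand). Stag1 was measured at 34.1 (replicate 1) and 39.1 TPM (replicate 2), a mean of 36.6 ± 3.52 TPM, and Stag2 at 45.5 and 38.9 TPM (42.2 ± 4.66 TPM). In replicate 1 Stag2 was higher, and in replicate 2 the genes were level. The log2 ratio of Stag2 to Stag1 was accordingly 0.41 in replicate 1 and -0.01 in replicate 2 (0.20 ± 0.30, n = 2), a mean smaller than the spread between the libraries. The deposited bounds of the 2 genes did not overlap in replicate 1 (41.3 to 48.7 TPM for Stag2 and 32.4 to 37.6 TPM for Stag1) and overlapped in replicate 2 (36.2 to 42.7 and 37.3 to 44.2 TPM). The ratio was not tested against 0: with 2 libraries an exact two-sided sign-flip test cannot give a p under 0.5.

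Stag1 and Stag2 are related in sequence, which bears on how reads were assigned to them. Over 3744 aligned coding bases the longest forms, Stag1-206 and Stag2-203, were identical at 69.9%, and their longest shared run was 23 bases. Pds5a and Pds5b shared 68.8% of 3970 aligned bases, again with a longest run of 23. The stretch around the shared run of Stag1 and Stag2 is shown because it is the longest stretch in which a read could not tell their coding sequences apart. Capitals mark the 17 of 83 bases that differ, and the sequences are those of the GENCODE M21 transcripts, read 5′ to 3′ on the plus strand of GRCm38 and spliced across 2 exons (Stag1, chr9:100845106-100848732, and Stag2, chrX:42229214-42229392).
Stag1: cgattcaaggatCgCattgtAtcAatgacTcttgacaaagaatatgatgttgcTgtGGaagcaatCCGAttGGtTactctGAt
Stag2: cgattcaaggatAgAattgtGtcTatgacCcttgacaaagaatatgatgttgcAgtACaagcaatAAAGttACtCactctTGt
The run is the uninterrupted lower case stretch of 23 bases near the middle, and differing bases flank it on both sides.

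The ratio of Stag2 to Stag1 turned on which transcripts were counted. Transcripts were classed by the GENCODE M21 annotation as having a complete coding sequence, an incomplete one (a model whose start or end was not found), a sequence predicted to undergo nonsense-mediated decay, or none (retained introns and other non-coding models). Complete coding transcripts of Stag2 summed to 27.9 (replicate 1) and 32.3 TPM (replicate 2). Those of Stag1 summed to 9.88 and 16.7 TPM. On this scale Stag2 exceeded Stag1 2.82-fold in replicate 1 and 1.94-fold in replicate 2, a log2 ratio of 1.22 ± 0.38 (n = 2). The same ratio on expected counts, which are not divided by transcript length, was 0.70 in replicate 1 and 0.51 in replicate 2. Of the summed Stag1 and Stag2 counts, Stag2 held 61.9% in replicate 1 (60.9 to 63.0) and 58.8% in replicate 2 (57.6 to 60.1). The intervals are exact binomial ones (Clopper-Pearson) at 95% and cover counting error only. Both libraries therefore placed Stag2 above Stag1 by counts and by complete coding transcripts, and only replicate 1 did so by gene TPM. The counts do not divide out effective length, which was 3619 and 5021 bases for Stag2 and 2966 and 3498 for Stag1.

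**Figure D2:**
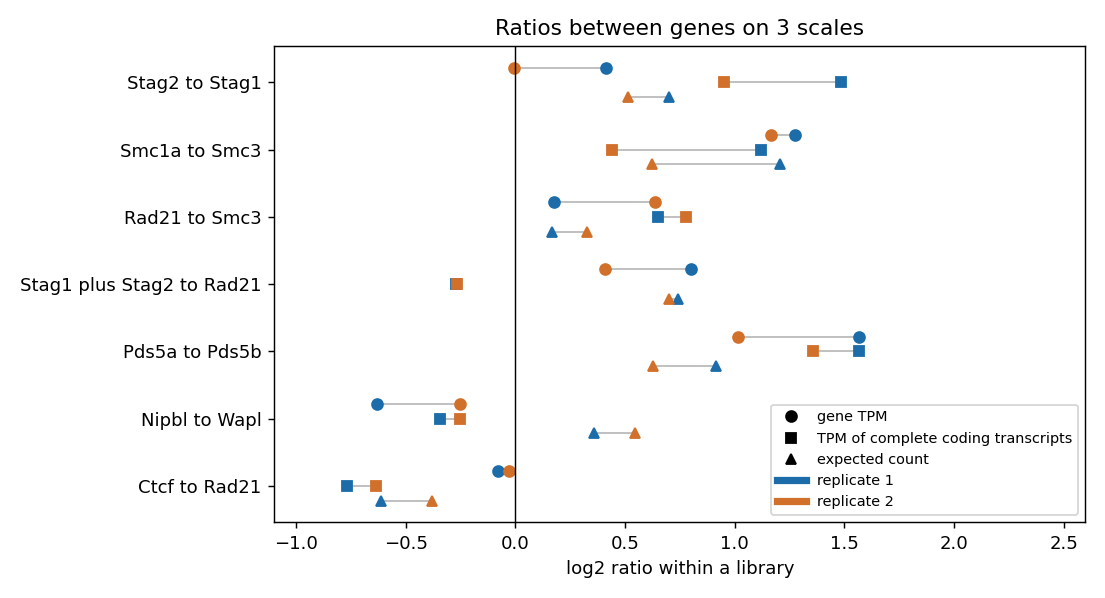
Log2 ratios between genes within a library (horizontal axis) for 7 ratios (vertical axis), with circles for gene TPM, squares for TPM of complete coding transcripts and triangles for expected counts. Grey lines join replicate 1 and replicate 2; the ratio of Stag2 to Stag1 lies at 0.41 and -0.01 by gene TPM and at 1.49 and 0.95 by complete coding transcripts.

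A short model accounted for part of the Stag2 level. Stag2-204, a model of 294 bases whose coding sequence is incomplete at its end, was assigned 97.2 expected counts in replicate 1, or 1.84% of the Stag2 counts. Since its effective length is only 172 bases, these reads made up 17.6 of the 45.5 TPM of Stag2, or 38.7% of the gene. In replicate 2 it was assigned 6.75 counts and 2.26 TPM, 5.81% of the gene. Its deposited bounds, 13.9 to 21.0 TPM and 0.38 to 5.36 TPM, did not overlap between the libraries. Without it Stag2 stood at 27.9 (replicate 1) and 36.6 TPM (replicate 2), and the ratio to Stag1 was 0.82 and 0.94, below 1 in both. Short Stag1 models were kept in that ratio. With transcripts under 1000 bases left out of both genes, the log2 ratio was 0.03 in replicate 1 and 0.10 in replicate 2. The 123 coding bases of Stag2-204 (from chrX:42201951 to chrX:42206124, spliced across 2 exons, GRCm38, plus strand) equal the start of the full-length Stag2-201 coding sequence. They are printed to show this shared coding start. Against the 3 complete coding Stag2 models, only 75 untranslated bases at the start of Stag2-204 are its own. The other Stag2 models were not compared.
Stag2-204 coding part: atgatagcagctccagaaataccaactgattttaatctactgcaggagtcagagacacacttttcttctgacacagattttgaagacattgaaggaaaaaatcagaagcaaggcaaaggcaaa

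Stag1 was spread over more models than any other of the 10 genes. The tables list 17 Stag1 transcripts, and 12 of them had counts in at least 1 library. Its leading transcript, the full-length Stag1-206, carried 29.0% of the gene in replicate 1 and 28.6% in replicate 2, at 9.88 and 11.2 TPM. Stag1-216, which is annotated as subject to nonsense-mediated decay and lacks 25 of the 33 coding exons of Stag1-206, stood at 6.33 and 9.43 TPM (18.6% and 24.1% of the gene). Stag1-209, a retained intron model of 692 bases, was at 6.89 (replicate 1) and 2.41 TPM (replicate 2). Complete coding transcripts made up 29.0% and 42.6% of Stag1 TPM, the lowest share among the 10 genes in both libraries, although they held 59.2% and 72.6% of its counts.

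**Figure D3:**
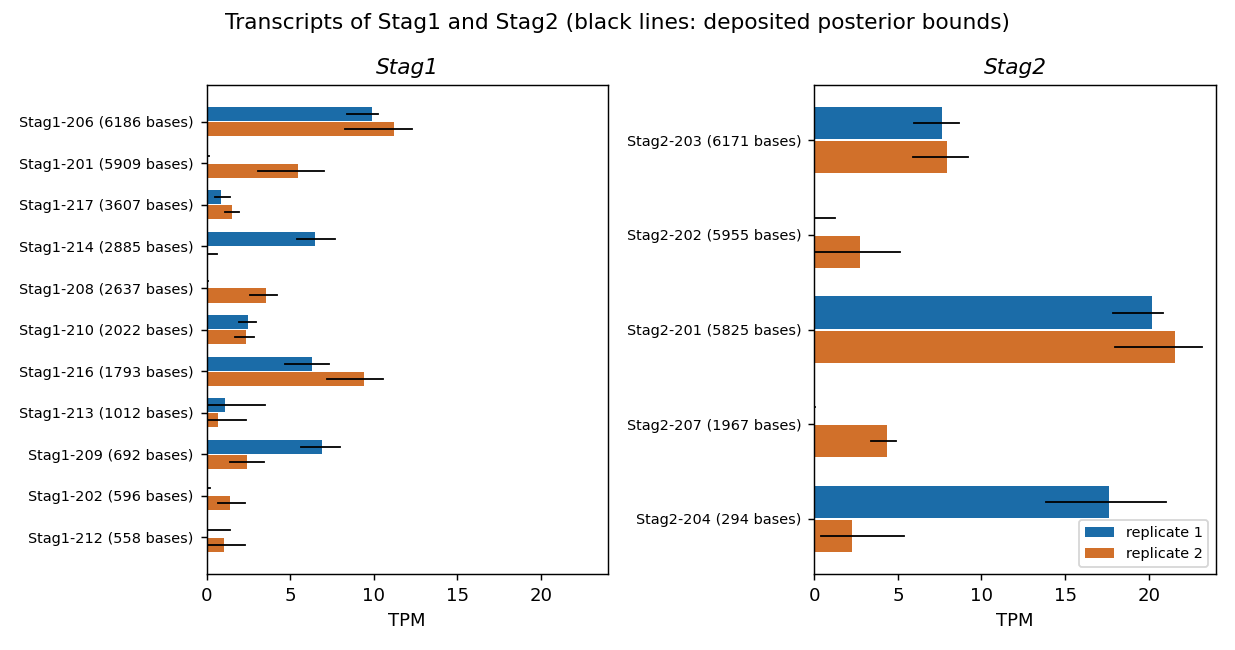
TPM (horizontal axis) of the Stag1 and Stag2 transcripts that exceed 0.5 TPM in a library, ordered by length (in bases, on the vertical axis), with replicate 1 and replicate 2 side by side and deposited posterior bounds as black lines. Stag2-204, the shortest, holds 17.6 TPM in replicate 1 and 2.26 TPM in replicate 2, while the full-length Stag2-201 holds 20.2 and 21.6 TPM.

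Each STAG gene has an alternative exon of 111 bases at the same place near the 3′ end of its coding sequence, exon 31 of 34 in both Stag1-206 and Stag2-203. The exon holds 37 codons and keeps the reading frame. It is the only coding stretch of Stag1-206 absent from Stag1-201, and the only one of Stag2-203 absent from Stag2-201. The exons are printed in capitals with 12 flanking bases on each side in lower case, because the share of transcripts with the exon was further apart between the genes than between the libraries (chr9:100953486-100953596 for Stag1 and chrX:42266366-42266476 for Stag2, GRCm38, plus strand, from the GENCODE M21 transcripts).
Stag1 exon 31: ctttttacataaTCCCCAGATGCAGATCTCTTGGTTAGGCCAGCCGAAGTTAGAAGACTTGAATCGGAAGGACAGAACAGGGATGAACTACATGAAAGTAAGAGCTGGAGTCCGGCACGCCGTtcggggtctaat
Stag2 exon 31: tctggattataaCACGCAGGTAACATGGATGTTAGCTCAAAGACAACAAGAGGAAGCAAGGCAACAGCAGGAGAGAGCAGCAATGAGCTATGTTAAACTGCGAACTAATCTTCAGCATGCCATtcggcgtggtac
Set side by side without gaps, 51 of the 111 bases are the same (45.9%), below the 69.9% of the whole coding sequence.

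Among complete coding transcripts, most Stag1 signal contained exon 31 and most Stag2 signal lacked it. Stag2-203, which contains the exon, stood at 7.67 (replicate 1) and 7.95 TPM (replicate 2), and the forms without it (Stag2-201 and Stag2-202) at 20.2 and 24.3 TPM. The exon was thus present in 27.5% and 24.6% of complete Stag2 transcripts (26.1 ± 2.05%, n = 2). For Stag1, the form with the exon stood at 9.88 and 11.2 TPM, and Stag1-201, without it, was listed at 0 in replicate 1 and at 5.47 TPM in replicate 2. The share was 100% in replicate 1 and 67.2% in replicate 2. The deposited bounds of Stag1-201 (up to 0.15 TPM in replicate 1, and 3.07 to 7.0 TPM in replicate 2) did not overlap. In each library the share was higher in Stag1 than in Stag2, by more than the difference between the libraries in either gene. These shares are estimates from reads assigned among overlapping models, and reads over the exon junctions were not counted here. They also leave out Stag1-214, an incomplete coding model of 2885 bases whose span covers the position of exon 31. Stag1-214 was assigned 577 counts and 6.51 TPM in replicate 1 and was listed at 0 in replicate 2. Stag1-216, at 6.33 and 9.43 TPM, also spans that position and is left out of the shares. Whether either model contains the exon was not examined.

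Nipbl (ENSMUSG00000022141, chr15:8290617-8444463, minus strand), the loader gene, was measured at 41.4 (replicate 1) and 37.0 TPM (replicate 2), a mean of 39.2 ± 3.08 TPM. With 11539 and 5835 expected counts it had the most reads of the 10 genes, on a transcript of 8815 bases in the tables. Wapl (ENSMUSG00000041408, chr14:34673928-34747983, plus strand), whose product opens the ring, stood at 64.0 and 44.2 TPM (54.1 ± 14.1 TPM). It had the widest spread between the libraries of the 10 genes, at 1.45-fold. Nipbl lay below Wapl within a library, by a log2 ratio of -0.63 in replicate 1 and -0.25 in replicate 2. On expected counts the order turned over (0.36 and 0.55), a scale on which the 8815 bases of Nipbl and the 6351 bases of the leading Wapl transcript are not divided out.

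Most of the Wapl signal came from 2 full-length forms, Wapl-201 and Wapl-205. Wapl-201 carried 44.8% of the gene in replicate 1 and 47.1% in replicate 2, and Wapl-205, which differs in its untranslated ends, 25.9% and 40.2%. Wapl-202 lacks 18 coding bases, 6 codons in frame, through a shift of the exon border. The 18 bases are given in capitals (chr14:34694987-34695004, GRCm38, plus strand) since they are the only coding bases of Wapl-201 absent from Wapl-202. Wapl-205 was counted with Wapl-201 as a form with the segment.
Wapl segment: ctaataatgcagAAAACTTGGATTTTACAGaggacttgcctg
The forms with the segment held 86.2% of complete Wapl transcripts in replicate 1 and 87.3% in replicate 2 (86.7 ± 0.78%, n = 2). Unlike exon 31 of Stag1, this share differed little between the libraries. Wapl-204 and Wapl-206, partial or non-coding models, held 3.95 and 7.53 TPM in replicate 1 and were listed at 0 in replicate 2. Without them, complete coding Wapl transcripts stood at 52.6 and 44.1 TPM, so that the libraries were closer on this scale.

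The paralogs Pds5a and Pds5b, both on chromosome 5 (ENSMUSG00000029202, chr5:65605721-65698273, minus strand, and ENSMUSG00000034021, chr5:150673739-150810690, plus strand), were far apart in level. Pds5a was measured at 74.6 (replicate 1) and 67.5 TPM (replicate 2), a mean of 71.1 ± 4.98 TPM, next to Smc1a in the order. Pds5b was at 25.1 and 33.4 TPM (29.2 ± 5.85 TPM), the lowest of the 10 in each library. Pds5a exceeded Pds5b 2.97-fold in replicate 1 and 2.02-fold in replicate 2, a log2 ratio of 1.29 ± 0.39 (n = 2), and by 1.46 ± 0.15 on complete coding transcripts. The 2 genes were not quantified alike, since the tables list a single Pds5a transcript, of 4146 bases, whereas GENCODE M21 lists 14. Pds5b-201, full length, carried 66.6% and 55.3% of Pds5b, and the shorter Pds5b-203 carried 21.0% and 15.3%. Pds5b-202, which differs from Pds5b-201 by 2 short insertions of 6 and 3 coding bases, held 15.8% and 13.0% of the sum of the 2 forms.

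Ctcf (ENSMUSG00000005698, chr8:105636568-105682922, plus strand) stood at 43.2 (replicate 1) and 57.6 TPM (replicate 2), a mean of 50.4 ± 10.2 TPM. Its level was close to that of Rad21 in each library, with a log2 ratio of -0.08 in replicate 1 and -0.03 in replicate 2. On complete coding transcripts Ctcf lay further below Rad21 (-0.77 and -0.63), as Ctcf-201 alone has a complete coding sequence and carried 61.8% and 65.7% of the gene. The rest of Ctcf was made up differently in each library. Ctcf-205, a non-coding model of 469 bases, held 25.9% in replicate 1 and 2.06% in replicate 2. Its share in replicate 1 rested on 125 of 3334 counts. Ctcf-206, a retained intron model that starts at the same base, went the other way, with 0.95% and 16.1%. Ctcf-204, which lacks 2 of the 10 coding exons of Ctcf-201 and is annotated without a coding sequence, was listed at 0 in replicate 1 and stood at 7.66 TPM in replicate 2, a form that was picked out after its values were seen. Annotated exons of Ctcf overlap exons of Agrp (0 TPM in both libraries) and of the non-coding gene Gm5914 (5.80 and 4.56 TPM) on the other strand. The handling of strand is not stated, but the deposited posterior SD of 0 for the Ctcf count shows no reads shared with either gene in the authors' assignment.

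In order of mean level the genes ran Smc1a, Pds5a, Wapl, Rad21, Ctcf, Stag2, Nipbl, Smc3, Stag1 and Pds5b. Of the 9 neighbouring steps in this order, 3 were wider than the spread, with no overlap between the values of both genes. These were the steps from Smc1a to Pds5a, from Pds5a to Wapl and from Stag1 to Pds5b. At each of the 6 steps from Wapl down to Stag1 the values of the neighbours overlapped. On complete coding transcripts Pds5a ranked first (71.1 ± 4.98 TPM), then Smc1a (54.9 ± 11.9 TPM), Rad21 (52.2 ± 9.33 TPM) and Wapl (48.3 ± 5.95 TPM), and Stag1 was last (13.3 ± 4.79 TPM). Pds5a, Rad21 and Nipbl have a single transcript in the tables and keep their whole level on this scale by construction. The summed level of Stag1 and Stag2 lay above Rad21 by gene TPM, at log2 ratios of 0.80 and 0.41. It lay below Rad21 on complete coding transcripts, at -0.27 and -0.26. Of the 7 ratios computed, 6 had the same sign in both libraries by gene TPM, the exception being Stag2 to Stag1. All 7 had the same sign in both libraries on complete coding transcripts and on expected counts, though the sign itself differed between scales for Nipbl to Wapl and for the summed STAG genes to Rad21.

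Between the libraries, no gene of the 10 was over 2-fold apart on the log2(TPM + 1) scale, where 27.1% of 12862 genes detected in either library were (13.1% higher in replicate 1 and 14.0% higher in replicate 2). None of the 10 was over 1.5-fold apart by gene TPM either, against 46.2% of those genes. Of the 1801 coding genes whose mean TPM lay within the range of the 10, 26.0% were. On complete coding transcripts Stag1 was over 1.5-fold apart, at 9.88 and 16.7 TPM (a log2 difference of -0.70, replicate 1 minus replicate 2). By gene TPM, Wapl (0.53, replicate 1 minus replicate 2), Stag2 (0.22), Smc1a (0.20), Nipbl (0.16), Pds5a (0.14) and Smc3 (0.09) were higher in replicate 1. Ctcf (-0.41), Pds5b (-0.40), Rad21 (-0.36) and Stag1 (-0.19) were higher in replicate 2. The median absolute difference of the 10 was 0.21, against 0.33 over the 1801 coding genes of like level. For 7 of the 10 genes the deposited bounds of the libraries did not overlap, the exceptions being Smc3, Stag1 and Stag2. The bounds describe each library alone. The same share over all detected genes was not computed, so this count does not set the 10 genes apart from others. The signed median was 0.12 and depended on scaling: it was -0.28 with TMM-normalised CPM, where the median over all detected genes moved from 0.10 to -0.03. Over 2-fold higher in replicate 2 were 8 of 12 neutrophil and 4 of 8 B lineage markers, and over 2-fold higher in replicate 1 were 4 of 7 T and NK and 3 of 10 stem cell markers. Their part in these differences was not tested.

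The tables list 56 transcripts of the 10 genes, of which 46 had counts. For all 7 genes with 2 or more transcripts the same transcript led in both libraries, as it did for 51.4% of 7364 detected coding genes with several transcripts. In each of the 7 that transcript had a complete coding sequence, as did the leading ones of 57.3% of those genes in both libraries. Neither share was computed over genes of like level, so these counts do not set the 7 genes apart from such genes. In Smc1a, Smc1a-201 carried 64.9% of the gene in replicate 1 and 54.6% in replicate 2, and Smc1a-206, a model subject to nonsense-mediated decay that holds 46.5% of the full coding sequence, 17.2% and 20.0%. In Smc3, Smc3-201 carried 72.0% and 90.4%, and the retained intron model Smc3-202, of 471 bases, 28.0% and 8.24%. The Smc3-202 share in replicate 1 rested on 126 of 4530 counts. The percentage points of a gene's signal that moved between transcripts from one library to the other ran from 13.0 (Smc1a) to 36.4 (Stag1), with a median of 21.2. Over all detected coding genes with several transcripts the median was 40.2, and it was 34.4 over 1541 such genes within the same range of levels.

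**Figure D4:**
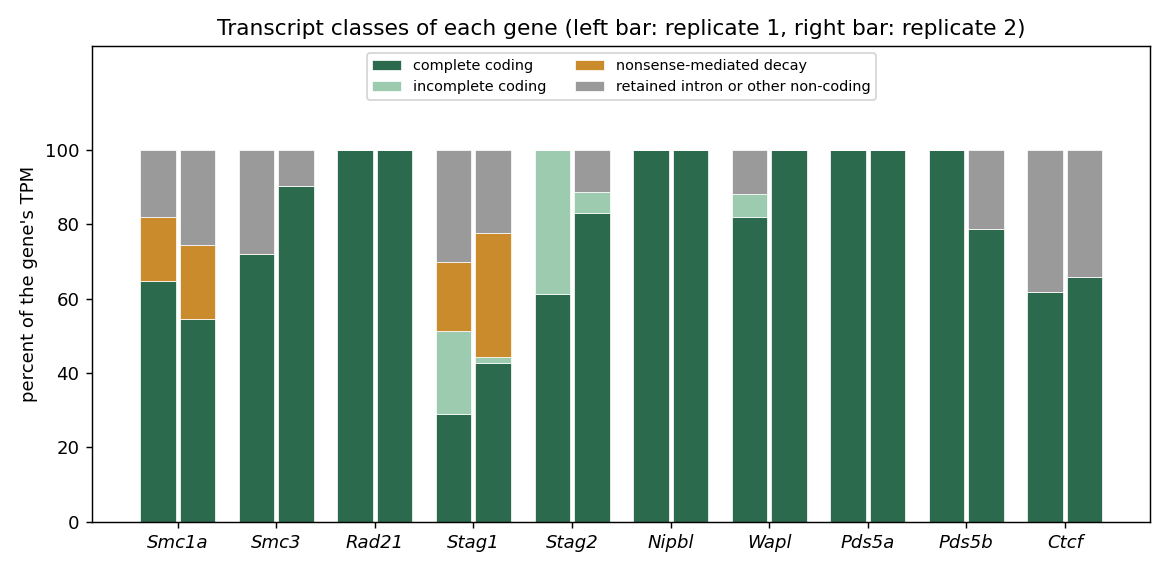
Percent of each gene's TPM (vertical axis) on complete coding, incomplete coding, nonsense-mediated decay and non-coding transcripts, with replicate 1 as the left and replicate 2 as the right bar of each gene. Rad21, Nipbl and Pds5a have a single transcript; Stag1 has the lowest complete coding share (29.0% and 42.6%).

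The 8 genes for loading, acetylation, protection and cleavage of cohesin were all detected, and each was below Pds5b, the lowest of the 10, in both libraries. Their median was 8.46 (replicate 1) and 13.0 TPM (replicate 2). Mau2, which encodes the partner of NIPBL, stood at 18.9 and 20.2 TPM, below Nipbl in both libraries. Espl1, the gene of the protease separase that cleaves RAD21, was at 18.5 and 17.5 TPM, and Pttg1, the gene of its inhibitor securin, at 14.96 and 8.34 TPM. Their median log2 difference between the libraries was -0.60, and none was over 2-fold apart.

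Of the 5 germline paralogs, 2 were detected in both libraries. Rec8, the meiotic kleisin gene, stood at 28.3 (replicate 1) and 10.2 TPM (replicate 2), from 645 and 280 expected counts. It lay below Rad21 in both libraries and was the only gene of this list over 2-fold apart between them. Stag3, the meiotic STAG gene, was at 2.17 and 3.11 TPM. Smc1b and Rad21l had no counts in either library, which allows up to 0.0239 and 0.0423 TPM of Smc1b and up to 0.061 and 0.108 TPM of Rad21l, for counting error only. Ctcfl, the germline paralog of Ctcf, had 2 counts in replicate 1 and 0 in replicate 2.

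The related SMC complexes spanned a wider range than cohesin. Of 14 condensin and SMC5/6 genes 13 were detected in both libraries, with medians of 27.7 and 23.9 TPM. Ncapd2, a condensin subunit gene, was highest at 191 (replicate 1) and 228 TPM (replicate 2), then Smc4, a condensin ATPase gene, at 74.1 and 98.2 TPM and Ncaph2, a kleisin gene of condensin, at 66.9 and 60.0 TPM. Nsmce3, a subunit gene of SMC5/6, was at 0.21 and 1.5 TPM and was not detected in both. All 6 genes of other looping factors were detected in both libraries, with medians of 35.0 and 42.8 TPM. They were led by Ldb1 (123 and 127 TPM), which encodes an adaptor that joins enhancers to promoters in blood cells, Maz (58.8 and 62.7 TPM) and Chd8 (34.2 and 54.8 TPM). Ldb1 lay above every one of the 10 genes in both libraries.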

How the data were processed

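Total RNA of 2 libraries of 1 group was analysed. Expected counts, TPM, FPKM, posterior mean TPM, the posterior bounds (a signal in TPM units whose level is not stated) and the percent of a gene carried by each transcript were deposited by the authors, per the file headers, whose column names are those of RSEM. The build is mm10 with GENCODE M4, per the deposited sample text; the sources used here do not state the aligner, versions, trimming or strand handling. Of 20 deposited TPM values of the 10 genes, 5 lay above their upper bound, by at most 2.25%.

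Symbols came from a gene name table and GENCODE M21 (42462 of 43346 genes matched), as did positions, transcript classes and sequences on GRCm38, the same build. All 56 transcripts of the 10 genes matched by identifier and 52 had the same length. Rows naming no mouse gene held 0.012% and 0.00719% of counts. Differences are log2(TPM + 1), and ratios use 0.1 TPM. With 1 group no test was made. The posterior SD of each gene count, also deposited by the authors, was read as a measure of read sharing. The genes, lists and ratios were chosen with earlier results of these data known. Named are all 10 genes, their leading transcripts and those with at least 20% of a gene, and per list the 3 highest members and any not detected in both libraries. Other transcripts (Stag1-201, Stag1-214, Stag2-202, Wapl-202, Wapl-204, Wapl-206, Pds5b-202, Ctcf-204, Ctcf-206, Smc1a-206) and the classes by complete coding sequence were picked once values had been seen. Alternatives used edgeR 4.0.16 (TMM) and DESeq2 1.42.0 (size factors) on rounded expected counts, in R 4.3.3. Other steps used Python 3.11.15, pandas 2.3.3, scipy 1.17.1 and biopython 1.88. Of these, only the step that calls fold differences between the libraries was tested on simulated data. A count of 0 was given an upper limit of 3 counts.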

Additional observations from a re-analysis of the deposited data

How the results depend on the processing

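Which transcripts were counted mattered more than the pseudocount or the posterior mean. The mean log2 ratio of Stag2 to Stag1, 0.20, was 0.61 on expected counts and 1.18 on protein coding transcripts. Of the settings added after seeing the data, it was 1.22 on complete coding transcripts and -0.19 without Stag2-204. With transcripts under 1000 bases left out of both genes, also a setting added later, it was 0.066. It ran from -0.0074 to 0.41 when a replicate was left out. The summed STAG genes lay at -0.27 relative to Rad21 on complete coding transcripts, and Nipbl at 0.45 relative to Wapl on expected counts. The median level was 27.8 in FPKM, 152 TPM when rescaled to nuclear coding genes and 36.3 TPM on complete coding transcripts, and from 41.6 to 44.4 TPM with a replicate left out. The median difference between the libraries was -0.060 with rescaled TPM, -0.28 with TMM, -0.29 with DESeq2 size factors and -0.13 on complete coding transcripts. The same transcript led in 4 of the 4 genes with several coding transcripts when others were left out. The median share on protein coding transcripts over the 7 genes with several transcripts was 75.4%, and 80.5% with nonsense-mediated decay transcripts included. All 10 genes were detected under each threshold tried, and none was over 2-fold apart between the libraries under any scaling tried. The 1.5-fold count was made on gene TPM only, and on complete coding transcripts Stag1 was over 1.5-fold apart. No paired analysis was possible because there is a single group. With 2 libraries, no spread within a condition can be separated from differences between the pools, and Pds5a, Rad21 and Nipbl, with 1 transcript each in the tables, could not show a change of transcript.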
